A study of Mus musculus with 6 samples.

Results

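The cytochrome P450 genes of families 1 to 3 were followed in the livers of 12-week-old male mice, 3 of the strain C57BL/6J (wild type, WT) and 3 of B6.Zpbp2-/- (Zpbp2 KO, the knockout), which lack zona pellucida binding protein 2, a sperm protein. No group received a treatment. How the allele was made, which part of Zpbp2 it removes and whether the controls were littermates is not stated in the labels. Members were the protein-coding genes whose mouse symbol is Cyp followed by the digit 1, 2 or 3, a single subfamily letter and a number. The rule found 55 genes among 37991 rows of the deposited count table, in 16 subfamilies on 8 chromosomes. A further 3 symbols of the reference annotation that fit the rule, Cyp2d10, Cyp2d12 and Cyp2d34, matched no row and were not analysed here.

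P450 enzymes of these families sit in the membrane of the endoplasmic reticulum and use a haem group to insert an oxygen atom into drugs, toxins, steroids, bile acids and fatty acids. Electrons reach them from NADPH through the reductase Por and, for some reactions, through cytochrome b5. In liver, transcription of many members follows ligand-activated receptors: AhR for Cyp1a genes, CAR (gene Nr1i3) for Cyp2b and several Cyp2c genes, and PXR (Nr1i2) for Cyp3a genes. Hepatocytes around the central vein express most of them more strongly than those near the portal vein, and the pattern of growth hormone secretion sets which members are male-biased or female-biased.

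Total counts ran from 37904891 to 52955687 per library. Zpbp2 gave 4, 13 and 7 counts in WT livers 1, 2 and 3 and 0 in each Zpbp2 KO liver. The tissue label was checked against 16 hepatocyte marker genes with a row in the table. All 16 were detected, and their levels, as CPM (counts scaled to a common library size), summed to between 118671 and 136157 in every liver. Of 17 markers of gut, kidney, lung and nose, 3 passed the filter on low counts and 8, Sftpc and Scgb1a1 among them, were at 0 in all 6 libraries. The 17 summed to 50.9 to 85.4 CPM in WT livers and 49.4 to 87.6 CPM in Zpbp2 KO livers. The gut marker Alpi had 1, 0 and 0 counts in WT livers 1 to 3. In Zpbp2 KO livers 1 to 3 it had 35, 0 and 0.

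Many members are recent copies of each other, and the closest ones are shown first because reads of 100 bases may not tell them apart. The coding sequences of GENCODE M21 (build GRCm38) were compared. Cyp2a4 and Cyp2a5 were 98.5% identical, Cyp2c67 and Cyp2c69 97.7%, Cyp3a25 and Cyp3a59 97.5%, Cyp2c67 and Cyp2c68 97.2% and Cyp2c37 and Cyp2c50 96.1%. For each member, the share of 100-base windows of its transcript that also occur in a transcript of another gene was counted. The share was above 10% for 7 members. It was 44.1% for Cyp2c40, 36.3% for Cyp2c69, 23.7% for Cyp2c67, 19.8% for Cyp2c68, 14.4% for Cyp2a5, 12.2% for Cyp2d11 and 11.2% for Cyp2a4. For 25 members, including Cyp2c29, Cyp2c55, Cyp2f2 and Cyp2u1, no window was shared, and for Cyp3a11 the share was 0.312%. The share was 9.86% for Cyp2d9, with 4.03% in common with Cyp2d10 and 3.66% with Cyp2d12. Cyp2d11 had 11.1% in common with Cyp2d10. Cyp2d10 and Cyp2d12 have no row, and whether their reads were counted for Cyp2d9 or Cyp2d11 is not known.

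The next lines give 90 bases of the coding sequence of Cyp2c54, at positions 817 to 906 counted from the start codon, with the aligned bases of its copies Cyp2c50 and Cyp2c37 and of Cyp2c55, a more distant gene of the same cluster. The stretch is the ungapped one in which Cyp2c50 and Cyp2c37 differ most from Cyp2c54. Capitals in the first line mark bases at which any other gene differs, and capitals in the other lines mark bases that differ from Cyp2c54.
Cyp2c54: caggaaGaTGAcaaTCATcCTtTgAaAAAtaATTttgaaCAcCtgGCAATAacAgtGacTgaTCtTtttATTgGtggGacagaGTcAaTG
Cyp2c50: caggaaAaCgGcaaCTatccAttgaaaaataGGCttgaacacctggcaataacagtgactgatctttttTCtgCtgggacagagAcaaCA
Cyp2c37: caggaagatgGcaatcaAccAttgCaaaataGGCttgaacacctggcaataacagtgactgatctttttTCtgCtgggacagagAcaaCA
Cyp2c55: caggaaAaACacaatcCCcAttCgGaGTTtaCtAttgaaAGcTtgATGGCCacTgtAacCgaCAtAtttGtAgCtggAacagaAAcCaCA

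In this stretch Cyp2c50 differed from Cyp2c54 at 15 of 90 bases, Cyp2c37 at 13 and Cyp2c55 at 37. Over the 1473 bases of the coding sequence the differences from Cyp2c54 were 70 for Cyp2c50, 72 for Cyp2c37 and 362 for Cyp2c55. Cyp2c68 and Cyp2c69 are closer to Cyp2c67 than to each other. Aligned coding bases that differ from Cyp2c67 numbered 42 for Cyp2c68, 34 for Cyp2c69 and 34 for Cyp2c40. The identity of Cyp2c40 to Cyp2c67, 92.3%, was counted over the longer coding sequence, 1563 bases in Cyp2c40 against 1476 in Cyp2c67. Positions 215 to 304 of Cyp2c67 are shown for these 4 genes with the same use of capitals.
Cyp2c67: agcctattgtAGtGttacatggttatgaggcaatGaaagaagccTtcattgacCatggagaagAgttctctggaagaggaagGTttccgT
Cyp2c68: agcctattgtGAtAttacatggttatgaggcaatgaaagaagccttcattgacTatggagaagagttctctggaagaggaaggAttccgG
Cyp2c69: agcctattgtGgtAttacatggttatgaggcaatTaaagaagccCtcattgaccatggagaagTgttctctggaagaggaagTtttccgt
Cyp2c40: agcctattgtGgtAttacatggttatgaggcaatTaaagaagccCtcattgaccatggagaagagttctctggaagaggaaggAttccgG

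Here each of the copies differed from Cyp2c67 at 6 of 90 bases. For Cyp2a5 and Cyp2a4 the stretch with the most differences, positions 580 to 669, held 5 of the 23 differences over 1485 bases.
Cyp2a5: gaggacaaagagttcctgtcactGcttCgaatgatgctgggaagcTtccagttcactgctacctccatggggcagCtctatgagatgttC
Cyp2a4: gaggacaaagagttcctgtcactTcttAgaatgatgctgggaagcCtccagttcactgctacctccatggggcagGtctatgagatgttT

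In both genotypes the family was carried by a handful of very abundant transcripts. Its members took 1.80%, 1.69% and 1.82% of all counts in WT livers 1 to 3 and 1.95%, 1.81% and 1.94% in the knockout livers 1 to 3. The 5 most abundant members held 59.8% to 65.3% of these counts, and Cyp2e1 alone 23.0% to 28.1%. Of the 55 members, 39 passed the filter on low counts, 8 had a few counts but did not pass, and 8 had 0 counts in every library. By mean CPM over the 6 livers, 5 members stood at 1000 CPM or more, 15 between 100 and 1000, 8 between 10 and 100, and 11 tested members below 10.

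**Figure D1:**
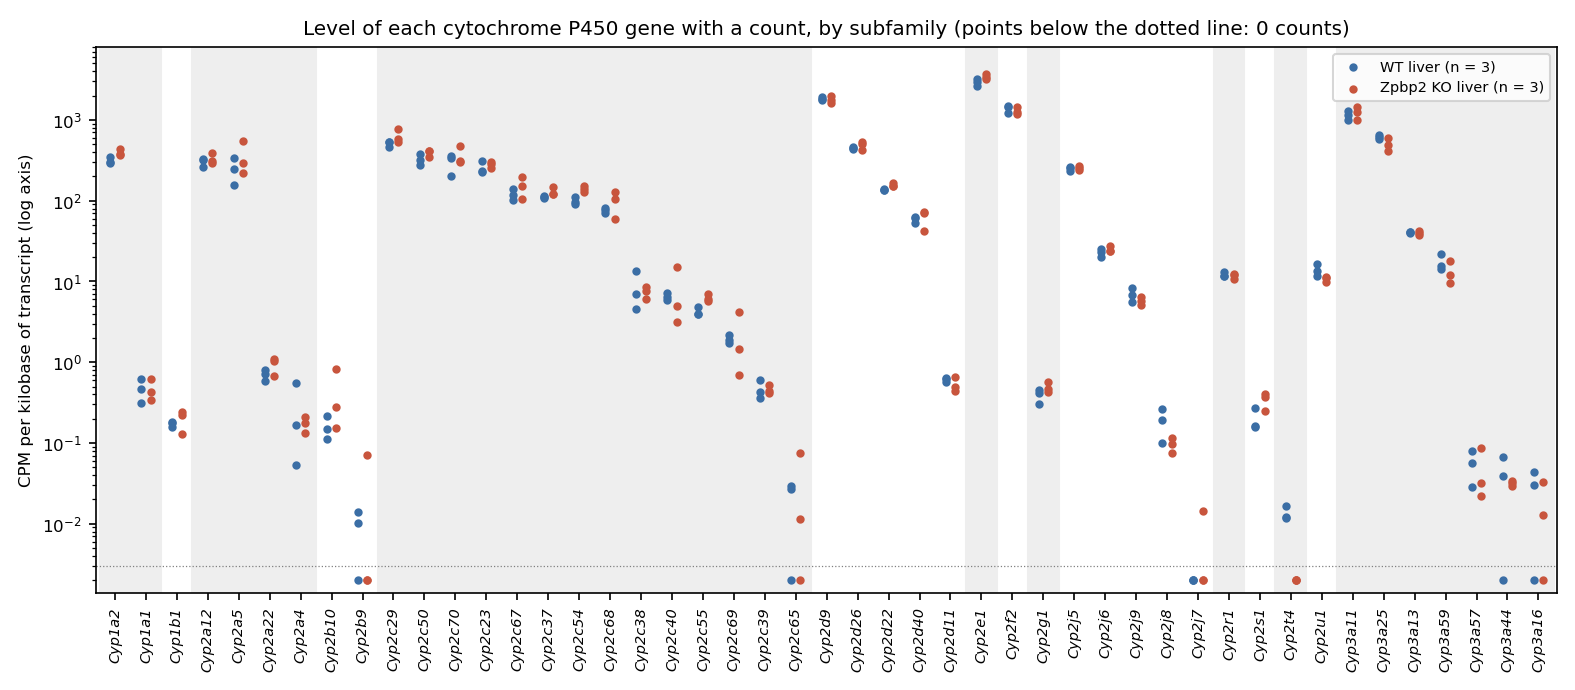
Level of the 47 members with a count in any library, as CPM per kilobase of transcript on a log axis, with 1 point per liver (blue WT, red Zpbp2 KO, 3 livers each) and shading by subfamily. Points under the dotted line are libraries with 0 counts and Cyp2e1 is the highest gene in both genotypes.

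Levels of different genes were compared per length, as CPM per kilobase of the mean protein-coding transcript. Cyp2e1, which oxidises ethanol, acetone and paracetamol, was first at 2920.4 ± 295 in WT and 3423 ± 263 in Zpbp2 KO livers (SD, n = 3). Cyp2d9, a male-biased steroid hydroxylase, followed at 1839.8 ± 87.8 and 1777 ± 174, then the periportal Cyp2f2, known for naphthalene activation, at 1382 ± 157 and 1292 ± 152, and Cyp3a11, the main drug-oxidising member of its subfamily, at 1147 ± 134 and 1231 ± 223. Cyp2f2 and Cyp3a11 did not differ beyond their spread. Cyp2c29 (510.0 ± 39.9 and 626 ± 122), Cyp3a25 (618 ± 37.3 and 499 ± 95.1) and Cyp2d26 (449 ± 8.79 and 486 ± 58.5) came next, with Cyp2c50 at 322 ± 51.4 and 390.3 ± 38.6. Cyp2c29 and Cyp3a25 changed places between the genotypes, and Cyp2c50 did not differ beyond its spread from Cyp1a2, the next in order, at 313 ± 26.9 and 394 ± 42.1. With the longest transcript as the length, 7 of these 8 stayed among the 8 highest, Cyp1a2 took the place of Cyp2c50, and Cyp2d9 came behind Cyp3a11 and Cyp2f2, because its level per kilobase depended 2.07-fold on the length used. The same dependence was 2.02-fold for Cyp2a5, 1.65-fold for Cyp2c40 and 1.59-fold for Cyp3a25 and Cyp2d22.

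The 8 silent members were Cyp2b13, Cyp2b19, Cyp2b23, Cyp2c66, Cyp2j11, Cyp2j12, Cyp2j13 and Cyp2w1. A count of 0 allows up to 3 counts, which is 0.0560 to 0.0786 CPM per library and covers counting error only. Of 9 genes listed as female-biased in mouse liver, 5 passed the filter and 4 did not. By mean CPM, Cyp2c38 (22.6), Cyp2c40 (7.80) and Cyp2c69 (3.32) led the 5, above Cyp2c39 (0.841) and Cyp2a4 (0.373). The others were Cyp2b13, at 0, and 3 genes with a few counts. Cyp2b9 had 1, 0 and 1 counts in WT livers and 0, 6 and 0 in the knockout livers, Cyp3a16 had 0, 4 and 2 and then 0, 1 and 3, and Cyp3a44 had 4, 7 and 0 and then 3, 3 and 3. No fold change is given for these. Genes on the same chromosome could differ greatly. On chromosome 7 the 5 Cyp2b genes summed to 0.236 to 1.55 CPM per liver, against 1458 to 1879.9 CPM for Cyp2f2.

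Beyond coding sequence, the members were compared for short promoter motifs in the 250 bases before the start site, with sequences from RefSeq (build GRCm38.p6), which matched 49 of the 55 members. Each motif was searched on both strands. A TATA box (TATAAA) was present in 22 of 49 members (44.9%) and in 14.3% of 27025 genes. The HNF4A motif CAAAGTCCA was in 8 of 49 (16.3%) and in 0.451% of all genes, and 4 of the 8 were the close copies Cyp2c40, Cyp2c67, Cyp2c68 and Cyp2c69. The C/EBP motif TTGCNNAA was in 13 of 49 (26.5%, all genes 10.8%), the HNF1 motif GTTAAT in 6 of 49 (12.2%, all genes 7.49%) and the AhR core GCGTG in 8 of 49 (16.3%, all genes 30.9%). The C/EBP matches included all 5 Cyp2b genes and the close copies Cyp2a4 and Cyp2a5. HNF1 matches included Cyp2a4, Cyp2a5, Cyp2c40, Cyp2c68 and Cyp2c69. Close copies were counted as separate members throughout. Among the 17 members at 100 CPM or more with a promoter sequence, 11 held a TATA box and 4 the HNF4A motif. Among the 32 members below that level the counts were 11 and 4. Such matches describe the sequence and are not shown to be sites.

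The 150 bases before the start site are printed for 6 members whose levels are described below, with motif matches in capitals.
Cyp1a2 (chr9:57683656-57683805, minus strand): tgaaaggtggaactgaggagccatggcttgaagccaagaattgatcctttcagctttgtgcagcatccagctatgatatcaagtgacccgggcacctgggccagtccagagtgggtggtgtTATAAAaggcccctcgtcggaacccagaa
Cyp2e1 (chr7:140763669-140763818, plus strand): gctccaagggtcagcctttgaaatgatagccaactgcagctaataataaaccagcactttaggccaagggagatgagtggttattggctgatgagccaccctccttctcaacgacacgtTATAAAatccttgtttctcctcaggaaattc
Cyp2c55 (chr19:39006869-39007018, plus strand): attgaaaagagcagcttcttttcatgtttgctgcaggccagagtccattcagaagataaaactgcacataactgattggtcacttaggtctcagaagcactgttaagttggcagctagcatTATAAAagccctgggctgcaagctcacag
Cyp3a11 (chr5:145879855-145880004, minus strand): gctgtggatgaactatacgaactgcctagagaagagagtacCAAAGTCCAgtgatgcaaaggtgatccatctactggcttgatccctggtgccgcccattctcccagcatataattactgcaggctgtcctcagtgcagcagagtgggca
Cyp2b10 (chr7:25897508-25897657, plus strand): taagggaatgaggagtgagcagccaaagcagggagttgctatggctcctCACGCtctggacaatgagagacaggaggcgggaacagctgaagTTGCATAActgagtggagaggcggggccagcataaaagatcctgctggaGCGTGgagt
Cyp2a5 (chr7:26835189-26835338, plus strand): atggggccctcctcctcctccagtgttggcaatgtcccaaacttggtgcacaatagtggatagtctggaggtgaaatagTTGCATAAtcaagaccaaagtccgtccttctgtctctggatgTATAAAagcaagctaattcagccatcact

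Cyp1a2, Cyp2e1 and Cyp2c55 held the TATA box in this stretch and no other match. Cyp2a5 held it with a C/EBP match, Cyp3a11 held the HNF4A motif, and Cyp2b10 held 1 C/EBP match and 2 matches to the AhR core.

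Between genotypes, no cytochrome P450 gene of these families was called higher or lower. Expression was tested with edgeR's quasi-likelihood test over 14686 genes, and a gene was called at a Benjamini-Hochberg adjusted p below 0.05. The count among the 39 tested members was 0, where 0.0136% of all tested genes were called. DESeq2 called 0 members (0.518% of all genes) and limma-voom 0 (0.0136%). At an unadjusted p below 0.05 by edgeR, 4 members were higher in Zpbp2 KO livers, Cyp2c54, Cyp2c55, Cyp1a2 and Cyp2s1, 10.3% of the tested members, where 2.86% of all tested genes were. On the lower side there was 1, Cyp2u1, where 2.93% were. At the same level DESeq2 gave 4 higher and 1 lower members and limma-voom 4 and 2. The lowest adjusted p of a member was 0.552 by edgeR, 0.0881 by DESeq2 and 0.565 by limma-voom, in each case that of Cyp2c54.

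Log2 fold changes (Zpbp2 KO over WT) had a median of 0.13 over the 39 members, with 26 above 0 and 13 below. Over all tested genes the median was 0.01, with 7764 above and 6922 below. In 5 members, Cyp1a2, Cyp2c37, Cyp2c54, Cyp2c55 and Cyp2d22, every Zpbp2 KO liver stood above every WT liver, 12.8% of the tested members, a pattern that 5.56% of all tested genes showed. In 1, Cyp2u1, every Zpbp2 KO liver stood below, as in 6.01% of all tested genes. The median was 0.04 without Zpbp2 KO liver 2, which held the highest value of the 6 livers for 15 of the 39 members and for 26.6% of all tested genes.

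**Figure D2:**
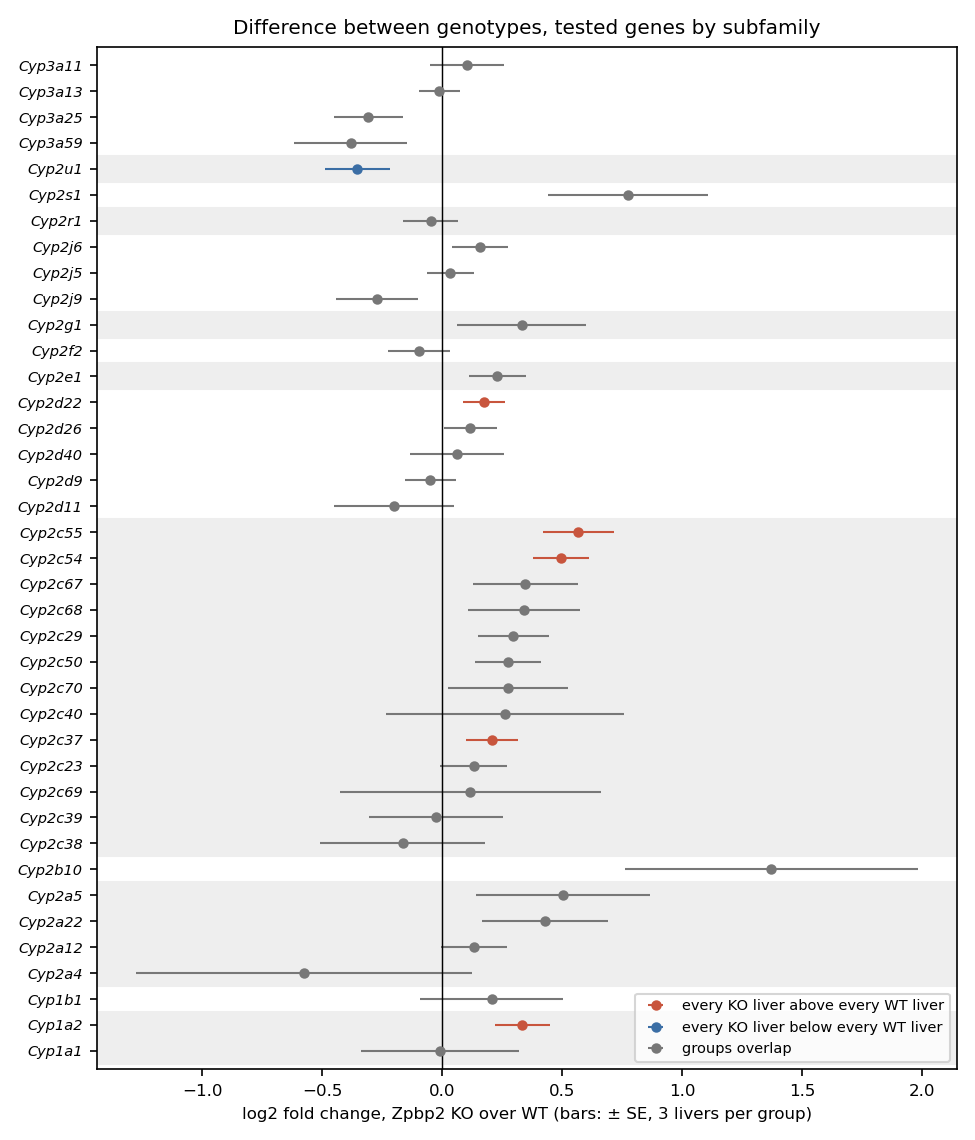
Log2 fold change ± SE of the 39 tested members, Zpbp2 KO over WT with 3 livers per group, ordered within subfamilies. Red points mark the 5 members in which every Zpbp2 KO liver exceeded every WT liver, the blue point marks Cyp2u1, and 11 of 13 Cyp2c genes lie above 0.

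Genes of the Cyp2c cluster, on chromosome 19, made up 3 of these 5. The subfamily oxidises many drugs and makes epoxides from arachidonic acid. Of 13 tested Cyp2c genes 11 were above 0 and 2 below, with a median of 0.27 and 0 called. Cyp2c54 stood at 162, 169.7 and 201 CPM in WT livers 1 to 3 and at 271, 251 and 227 CPM in the knockout livers 1 to 3. The groups did not overlap, and the means of 177 ± 20.5 and 249.7 ± 22.3 CPM (SD, n = 3) gave a log2 fold change of 0.49 ± 0.117 (SE). Cyp2c55, which is known mainly from intestine and is induced through CAR and PXR, was low in liver. It stood at 7.84, 7.86 and 9.75 CPM in WT livers and at 14.1, 11.3 and 12.2 CPM in the knockout livers, again without overlap, a log2 fold change of 0.57 ± 0.148. Cyp2c55 shares no 100-base window with another gene, whereas Cyp2c54 shares 7.59% of its windows.

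The copies of Cyp2c54 had smaller differences. Cyp2c37 stood at 201, 199 and 211 CPM in WT livers and at 267, 218 and 219.6 CPM in the knockout livers, a log2 fold change of 0.21 ± 0.107. The groups were separate, but only Zpbp2 KO liver 1 was far from WT. Cyp2c50 overlapped between groups, with 557 ± 88.8 and 674 ± 66.6 CPM (0.28 ± 0.138). With the counts of Cyp2c37, Cyp2c50 and Cyp2c54 summed, the log2 fold change was 0.31 ± 0.123. Cyp2c29, the most abundant Cyp2c gene and an arachidonate epoxygenase, stood at 934, 822 and 953 CPM in WT livers and at 1352, 939 and 1037 CPM in the knockout livers (0.30 ± 0.147). Its Zpbp2 KO liver 1 was high and liver 2 lay within the WT range, and without liver 1 the value was 0.13. Without WT liver 1 that of Cyp2c50 was 0.17.

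Cyp1a2, which metabolises caffeine and aromatic amines and depends on AhR, stood at 568, 588 and 667 CPM in WT livers and at 733, 858 and 704 CPM in the knockout livers. All 3 Zpbp2 KO livers were above WT, and the log2 fold change was 0.33 ± 0.115. Its neighbour Cyp1a1, the classical AhR-induced gene, was low in all livers, with 1.24 ± 0.400 CPM in WT livers and 1.23 ± 0.383 CPM in the knockout livers. Its log2 fold change was -0.01 ± 0.331, and its sign changed when WT liver 1 was left out (0.26). Cyp1b1, a mainly extrahepatic member, stood at 0.730 ± 0.0438 and 0.844 ± 0.263 CPM (0.21 ± 0.299). Cyp2s1, another gene that AhR ligands can induce, stood at 0.591, 0.355 and 0.341 CPM in WT livers and at 0.544, 0.877 and 0.805 CPM in the knockout livers (0.77 ± 0.333), on 13 to 42 counts per library, and the groups overlapped.

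**Figure D3:**
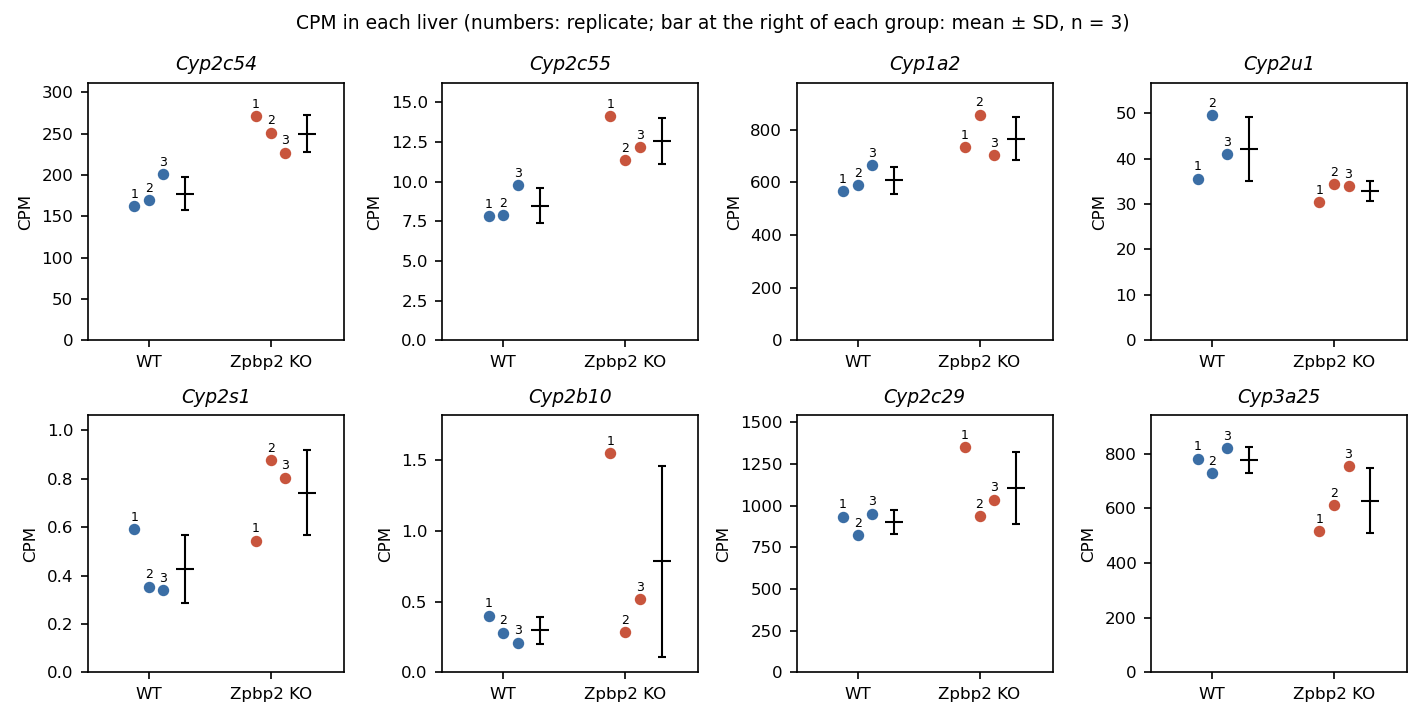
CPM of 8 members in each liver (points, labelled with the replicate number, blue WT and red Zpbp2 KO) with the mean ± SD of 3 livers beside each group, on linear axes from 0. Cyp2c54, Cyp2c55 and Cyp1a2 are separate and higher in Zpbp2 KO, Cyp2u1 is separate and lower, and the 4 genes of the lower row overlap.

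The fold change of Cyp2b10, the standard read-out of CAR activation, depended on 1 animal. Its counts were 21, 15 and 8 in WT livers and 74, 13 and 27 in Zpbp2 KO livers, that is 0.400, 0.280 and 0.210 CPM against 1.55, 0.285 and 0.517 CPM. The log2 fold change of 1.37 ± 0.612 was the largest of any member, but Zpbp2 KO liver 2 lay within the WT range, liver 3 lay above it and liver 1 further above. Without Zpbp2 KO liver 1 the value was 0.42. Its adjusted p was 0.798 in the edgeR test over all genes. Zpbp2 KO liver 1 was also the highest of the 6 livers for Cyp2c29, Cyp2c37, Cyp2c50, Cyp2c54, Cyp2c55, Cyp2d11 and Cyp2e1. With Cyp2b10 these made 8 of the tested members (20.5%), where 15.4% of all tested genes were highest in that liver. The same liver held 35 counts of the gut marker Alpi, which had 0 in Zpbp2 KO livers 2 and 3. The part of gut RNA in its P450 values was not tested.

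The counts by list that follow stand beside shares over all tested genes of 52.9% above 0, 2.86% (higher) and 2.93% (lower) with unadjusted p below 0.05, and 5.56% without overlap on the higher side. Grouped by textbook role, the 11 genes listed as CAR-induced had 7 tested members. Of these 7 were above 0, 2 had an unadjusted p below 0.05 and 3 were higher in every Zpbp2 KO liver, with a median of 0.49. The 8 genes listed as pericentral were all tested and all above 0, with a median of 0.29, 2 at an unadjusted p below 0.05 and 3 without overlap. These lists share Cyp2a5, Cyp2c29, Cyp2c37, Cyp2c50 and Cyp2c54 and were written with earlier results of these data known, so neither count is independent evidence. The 7 genes listed as PXR-induced were the Cyp3a members, and 4 were tested, 1 above and 3 below 0 with a median of -0.16. Cyp2c55, induced through CAR and PXR, was counted only in the CAR list, so the lists cannot separate the receptors. Pericentral genes outside the P450 family had 11 of 16 tested members above 0, a median of 0.02, and 2 genes lower but none higher at an unadjusted p below 0.05. The lower ones, Axin2 (-0.62 ± 0.162) and Tbx3 (-0.59 ± 0.204), are targets of Wnt signalling and were chosen after their values were seen, as was Glul, the glutamine synthetase gene, which stood at 1055 ± 35.7 and 1103 ± 12.5 CPM (0.06 ± 0.0877).

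Cyp2e1 stood at 4710.4, 3846 and 4372 CPM in WT livers and at 5470.3, 4981 and 4703 CPM in the knockout livers. The groups overlapped through WT liver 1 and Zpbp2 KO liver 3, and the log2 fold change was 0.23 ± 0.118. The sum over all members was above WT in every Zpbp2 KO liver on the CPM scale, at 17745, 16741 and 18116 CPM against 19485, 19128 and 19103 CPM. As a share of plain total counts the groups overlapped, because Zpbp2 KO liver 2 (1.81%) lay below WT liver 3 (1.82%). The summed level of the hepatocyte markers lay between 118671 and 124437 CPM in WT livers and between 127273 and 136157 CPM in the knockout livers, with 13 of 16 markers above 0 and a median of 0.17. Relative to these markers, the members stood at 14.4 ± 0.397% in WT and 14.7 ± 0.594% in the knockout livers. Most of the marker sum was Alb, with a mean of 70446 of 121678 CPM in WT and 75719 of 130725 CPM in the knockout livers. The ratio is therefore mainly one to Alb. Markers of other cell types also differed in sum between livers. Kupffer cell and macrophage markers (17 of 20 above 0, median 0.11) summed to 577 to 852 CPM in WT livers and to 876, 393 and 980.4 CPM in the knockout livers 1, 2 and 3. Endothelial markers (6 of 15 above 0, median -0.06) summed to 418 to 566 CPM and to 627, 276 and 477 CPM. Zpbp2 KO liver 2, which held the highest value for 15 of 39 members, was the lowest of the 6 livers for both sums and the highest for the hepatocyte sum. T, NK and B cell markers (16 of 19 above 0, median 0.34) summed to 10.6 to 16.2 CPM in WT livers and 12.5 to 18.5 CPM in the knockout livers, and erythroid markers (5 of 6, median 1.05) to 173 to 253 CPM and 193 to 379.6 CPM. In bulk tissue, more hepatocytes and more RNA per hepatocyte cannot be told apart, and the part of any of these markers in the P450 values was not tested.

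**Figure D4:**
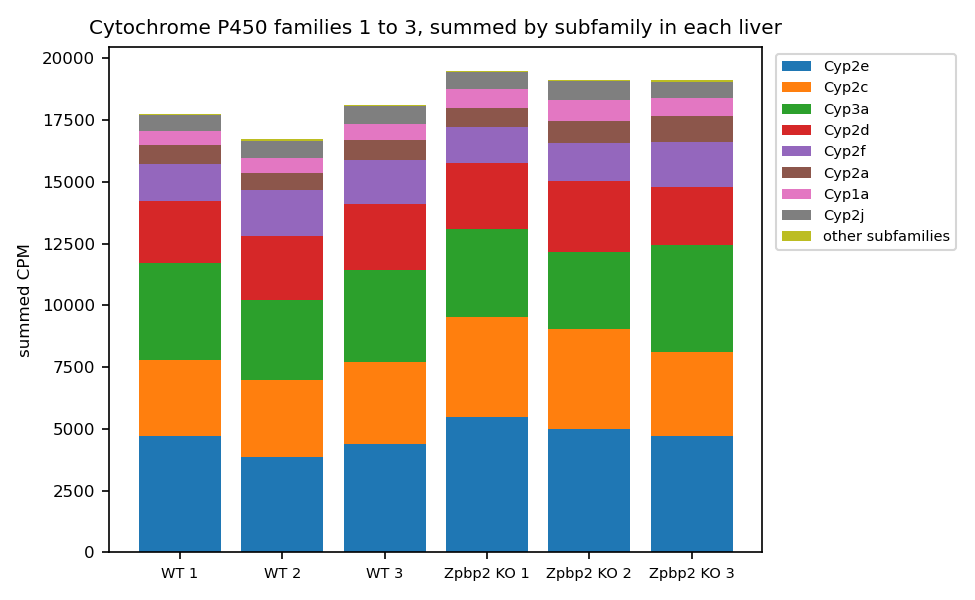
Summed CPM of the members in each liver, stacked by subfamily, with the vertical axis from 0. The 3 Zpbp2 KO livers reach 19103 to 19485 CPM and the 3 WT livers 16741 to 18116 CPM, and Cyp2e, Cyp2c, Cyp3a and Cyp2d make up most of each bar.

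Lower values were fewer. Cyp2u1, which hydroxylates long-chain fatty acids, stood at 35.6, 49.6 and 41.0 CPM in WT livers and at 30.4, 34.4 and 34.0 CPM in the knockout livers. The groups were separate by a small gap to WT liver 1, and the log2 fold change was -0.35 ± 0.135, or -0.22 without WT liver 2. In the Cyp3a subfamily, which oxidises steroids and a broad range of drugs, Cyp3a25 stood at 782, 728 and 821 CPM in WT livers and at 517, 611 and 755 CPM in the knockout livers (-0.31 ± 0.143). Zpbp2 KO liver 3 lay inside the WT range, and without Zpbp2 KO liver 1 the value was -0.19. With wider error, the near copy Cyp3a59 followed at 34.2 ± 7.84 and 26.3 ± 8.18 CPM (-0.38 ± 0.236). Summed with Cyp3a59, the log2 fold change was -0.31 ± 0.144. The dominant Cyp3a11 did not follow them, with 2689 ± 314 CPM in WT livers and 2885 ± 523 CPM in the knockout livers (0.10 ± 0.155). Cyp2j9 stood at 14.1 ± 2.81 and 11.7 ± 1.32 CPM (-0.27 ± 0.170, or -0.12 without WT liver 1).

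Other abundant members lay close to 0. Cyp2d9 stood at 1521 ± 72.6 and 1469 ± 144 CPM (-0.05 ± 0.107), Cyp2f2 at 1722 ± 196 and 1609 ± 189 CPM (-0.10 ± 0.129), and Cyp2d26 at 763 and 827 CPM (0.12 ± 0.111). Cyp2j5, an epoxygenase abundant in liver and kidney, stood at 585 ± 38.1 and 598 ± 37.8 CPM (0.03 ± 0.0985), Cyp2a12, a bile acid and steroid hydroxylase, at 508 ± 59.9 and 556 ± 84.2 CPM (0.13 ± 0.138), and Cyp2r1, a vitamin D hydroxylase, at 18.0 ± 1.22 and 17.4 ± 1.28 CPM (-0.05 ± 0.114). Among the low genes, Cyp2g1, known from the olfactory mucosa, stood at 0.742 ± 0.147 and 0.927 ± 0.147 CPM (0.33 ± 0.268) and Cyp2d11 at 0.976 ± 0.0549 and 0.848 ± 0.176 CPM (-0.20 ± 0.250). For Cyp2d22 the values were 234, 239 and 244 CPM in WT livers and 262, 287 and 262 CPM in the knockout livers (0.17 ± 0.0878). Cyp2d22 and Cyp2c37 were chosen after their values were seen, as the other genes without overlap.

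Some members varied more between animals of a genotype than between genotypes. The coefficient of variation within a group exceeded 50% in 5 of 39 members (12.8%; all tested genes 7.27%), namely Cyp2a4, Cyp2b10, Cyp2c38, Cyp2c40 and Cyp2c69. Of these only Cyp2c38 had a mean of 10 CPM or more. At that level it was 1 of 28 members (3.57%), against 1.52% of all tested genes. The close copies Cyp2c40, Cyp2c69, Cyp2c67 and Cyp2c68 had the same order of animals within the knockout group but not within WT. Cyp2c40 stood at 6.37, 7.92 and 6.97 CPM in WT livers and at 5.39, 16.7 and 3.49 CPM in the knockout livers. Zpbp2 KO liver 2 was the highest and Zpbp2 KO liver 3 the lowest within the knockout group for all 4, by 4.78-fold in Cyp2c40, 6.09-fold in Cyp2c69, 1.89-fold in Cyp2c67 and 2.10-fold in Cyp2c68. The same holds for 11 of 39 members (28.2%), Cyp1a2 and Cyp2d9 among them, and for 23.4% of all tested genes. Since the 4 copies share up to 44.1% of their 100-base windows with other genes, the part of shared reads in this pattern was not tested. With the 4 genes summed, the log2 fold change was 0.34 ± 0.228. Cyp2a4, another female-biased gene, had 50, 5 and 11 counts in WT livers and 11, 14 and 19 in the knockout livers, and its log2 fold change of -0.58 ± 0.699 became 0.73 without WT liver 1. Cyp2c38 was likewise highest in WT liver 1, at 38.5 CPM against 13.2 and 19.9 in the other WT livers.

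Cyp2a5, a coumarin hydroxylase whose transcription is known to follow the clock output factors Dbp, Tef and Hlf, ranged 2.13-fold within WT and 2.50-fold within Zpbp2 KO livers. It stood at 336, 158 and 249 CPM in WT livers and at 288, 219 and 547 CPM in the knockout livers (0.50 ± 0.361), so the animals differed more than the genotypes, and without Zpbp2 KO liver 3 the value was 0.03. Dbp itself stood at 135, 5.45 and 15.1 CPM in WT livers and at 41.2, 8.13 and 199 CPM in the knockout livers, a range of 24.8-fold and 24.5-fold within the groups. The order of the 3 animals within each genotype was the same for Cyp2a5 as for Dbp. Tef and Por, the reductase that serves all these enzymes and a known target of the same factors, had that order too, but Hlf did not, at 36.7, 41.8 and 51.6 CPM in the knockout livers. Of 63 tested receptors, factors and partners, 9 had it, Dbp itself included. Por stood at 319, 127 and 169 CPM in WT livers and at 207, 120.5 and 319 CPM in the knockout livers (0.07 ± 0.400). In all, 4 of 39 members (10.3%), Cyp1a1, Cyp2a5, Cyp3a11 and Cyp3a13, had the order of Dbp in both groups, against 5.34% of all tested genes. This comparison was chosen after the values were seen, and the times at which the livers were collected are not stated in the labels.

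**Figure D5:**
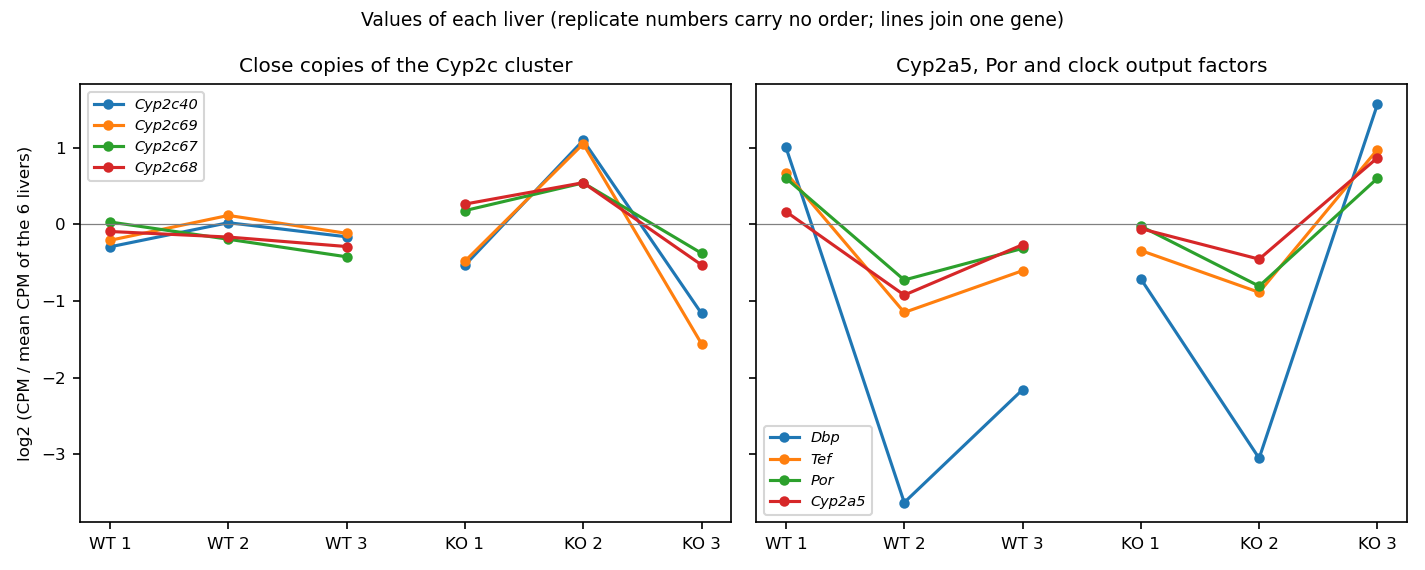
Log2 of CPM over the mean of the 6 livers, for 4 close copies of the Cyp2c cluster (left) and for Dbp, Tef, Por and Cyp2a5 (right), with lines joining the 3 livers of a genotype for 1 gene. On the left, within the Zpbp2 KO group, liver 2 is highest and liver 3 lowest for all 4 genes, and on the right WT liver 1 and Zpbp2 KO liver 3 are the highest of their groups.

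None of the receptors that govern these genes was called. Nr1i3, encoding CAR, stood at 157 ± 36.2 CPM in WT livers and 157 ± 9.23 CPM in the knockout livers (log2 fold change 0.00 ± 0.165). Nr1i2, encoding PXR, stood at 79.0 ± 10.1 and 76.0 ± 3.96 CPM (-0.05 ± 0.116), and Ahr at 38.3 ± 1.64 and 39.6 ± 7.04 CPM (0.05 ± 0.133). Of 20 receptors, receptor partners and stress sensors, 0 were called by edgeR, with none higher and 1 lower at unadjusted p below 0.05. The lower one was Nfe2l2, the antioxidant response factor NRF2, at 109.7, 67.9 and 84.6 CPM in WT livers and at 64.8, 67.7 and 64.7 CPM in the knockout livers (-0.41 ± 0.163, no overlap, and -0.21 without WT liver 1).

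Among 30 hepatocyte and clock factors that act on P450 promoters, 0 were called, with none higher and 2 lower at unadjusted p below 0.05. Hnf4a, the nuclear receptor whose motif is printed above, stood at 629 and 644 CPM (0.03 ± 0.0925). The lower ones were Prox1, a corepressor of HNF4A, at 138 ± 28.2 and 90.4 ± 11.6 CPM (-0.61 ± 0.164, no overlap) and Bcl6, a repressor in the growth hormone pathway, at 52.7 ± 32.7 and 20.2 ± 5.03 CPM (-1.39 ± 0.504, with overlap through WT liver 2).

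Of 13 genes for partners of the enzymes, 0 were called by edgeR, 1 being higher and 1 lower at unadjusted p below 0.05. Alas1, which makes the first intermediate of haem, stood at 232, 106 and 174 CPM in WT livers and at 329, 595 and 408 CPM in the knockout livers. Every Zpbp2 KO liver was above WT, the log2 fold change was 1.38 ± 0.303, and the adjusted p was 0.475 in the edgeR test and 0.000878 in DESeq2. The microsomal epoxide hydrolase Ephx1, which acts on epoxides that P450 enzymes form, stood at 487 ± 67.3 and 363 ± 7.49 CPM (-0.43 ± 0.117) without overlap.

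Receptor targets outside the P450 family were mixed, with 12 of 29 tested genes above 0, a median of -0.03, 0 called, and 2 genes above and 1 below WT at an unadjusted p under 0.05. The glutathione transferases Gstt1 (189 ± 26.6 and 236 ± 17.9 CPM, 0.32 ± 0.125) and Gstm2 (55.5 ± 8.37 and 76.1 ± 17.3 CPM, 0.46 ± 0.182) were the higher ones. Their values were 0.21 without WT liver 2 and 0.30 without Zpbp2 KO liver 2, respectively. The glucuronosyltransferase Ugt2b35 was the lower one (351 ± 17.9 and 284 ± 33.2 CPM, -0.31 ± 0.111). Sex-biased liver genes outside families 1 to 3 had 6 of 17 above 0 and a median of -0.17, with 0 called by edgeR. The male-biased pheromone gene Mup20 stood at 4834 ± 481 and 3157 ± 126 CPM (-0.61 ± 0.111, no overlap, adjusted p = 0.330 in the edgeR test and 0.000343 in DESeq2), while the male-biased Cyp2d9 differed by less than its spread.

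The other cytochrome P450 families, from 4 upward, were set beside these. Of 38 protein-coding genes 26 were tested, with 12 above and 14 below 0 and a median of -0.09. At an unadjusted p below 0.05, 1 was higher and 3 were lower, where 2.86% and 2.93% of all tested genes were, and 4 and 1 in families 1 to 3. The higher one was Cyp7a1, whose enzyme starts the classical route from cholesterol to bile acids (0.97 ± 0.359). Cyp7a1 stood at 73.6, 42.1 and 53.2 CPM in WT livers and at 91.7, 176 and 62.9 CPM in the knockout livers. Its groups overlapped, and Zpbp2 KO liver 2 was the highest. The lower ones were Cyp4a31 (-0.90 ± 0.255), Cyp4a32 (-0.83 ± 0.337) and Cyp4f39 (-0.88 ± 0.329), each without overlap. For Cyp4a32 the gap was small, with 26.8, 28.6 and 59.5 CPM in WT livers and 26.6, 14.3 and 23.8 CPM in the knockout livers. Cyp4f39 rested on 14 to 38 counts per library. Windows shared with other genes were not counted for these families. All of these genes were chosen after their values were seen. Together the 38 genes of the other families took 0.335 ± 0.0187% of all counts in WT and 0.313 ± 0.0182% in the knockout livers. The difference between the family groups was not tested.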

How the data were processed

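Liver RNA of 6 animals, 3 per genotype, was poly(A)-selected and made into directional libraries read as pairs of 100 cycles, per the labels' protocols. The authors deposited whole-number counts per Ensembl gene ID, not normalized. STAR, Picard and HTSeq are named with the build mm9, per the submitters' processing notes. Versions, annotation and strand setting were not given in the sources used here. Genes on opposite strands and close copies may therefore share reads. The 6 columns were matched to samples by title. The labels give 3 males per genotype.

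Symbols came from GENCODE M21 and RefSeq by Ensembl ID (86.7% of 37991 IDs). Genes kept by filterByExpr (minimum count 10) were scaled by TMM and tested with the quasi-likelihood F-test of edgeR 4.0.16 in R 4.3.3, two-sided, with no covariate and Benjamini-Hochberg adjustment over 14686 genes. SEs are those implied by the test. CPM uses TMM-scaled library sizes. Alternatives were DESeq2 1.42.0, limma-voom (limma 3.58.1), other scalings and filters, a replicate block and each library left out. The fit was tested on simulated data. Members and lists were chosen with earlier results of these data known. Named members were those called, the 6 lowest p-values per direction, the 8 highest levels per length, the highest tested gene of each subfamily and 16 textbook genes. Named others were Por, Nr1i2, Nr1i3, Ahr, Hnf4a, Zpbp2 and up to 2 genes per list and direction at an unadjusted p below 0.05. Other genes were chosen after their values were seen.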

Additional observations from a re-analysis of the deposited data

How the results depend on the processing

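The count of called members was 0 under each of 13 alternatives. With each library left out in turn, the count of higher members at an unadjusted p below 0.05 was 2 (without WT replicate 2) to 8 (without Zpbp2 KO replicate 3), and of lower members 0 (without Zpbp2 KO replicate 1) to 3 (without Zpbp2 KO replicate 2 or 3). The lower count was also 2 with limma-voom, 2 without a filter and 3 with the replicate block, against 1. The median log2 fold change of the members was 0.0400 (without Zpbp2 KO replicate 2) to 0.188 (without WT replicate 1), against 0.131. The replicate numbers are not stated to pair animals, and deviations of same-numbered livers correlated at 0.14, 0.20 and -0.24, so the block is no paired design. Summed counts of close copies were an alternative chosen after seeing the data.

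Of 510 values of named genes under an alternative, 485 kept their sign, and 28 of 39 genes had no change of sign. With library totals Cyp2j5 was -0.00230, Hnf4a -0.000370 and Nr1i3 -0.0296. Nr1i3 was -0.00737 with DESeq2 and -0.00735 with its size factors, and Cyp1a1 was 0.00740 with limma-voom. With 1 library left out, the values ran from -0.108 to 0.122 for Ahr, -0.286 to 0.256 for Cyp1a1, -1.07 to 0.729 for Cyp2a4, -0.124 to 0.0169 for Cyp2d9 and -0.0182 to 0.0759 for Cyp2j5. They ran from -0.0955 to 0.00972 for Cyp2r1, -0.0334 to 0.229 for Cyp3a11, -0.00216 to 0.0879 for Hnf4a, -0.154 to 0.0255 for Nr1i2, -0.174 to 0.136 for Nr1i3 and -0.327 to 0.539 for Por. The cause was not tested. DESeq2 called Alas1 (1.37) and Mup20 (-0.63), which edgeR did not. Cyp2b10 and Cyp2a4 rest on 5 to 74 counts per library, which limits their precision.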
